A study of Homo sapiens with 3 samples.

Results

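Scavenger receptors are the surface and lysosomal proteins with which macrophages take up modified lipoproteins, dying cells and microbes. The set described here was named as 10 genes, MSR1, MARCO, COLEC12, CD36, SCARB1, SCARB2, OLR1, MRC1, STAB1 and CD68. A gene entered if a probe set on the array was listed with exactly that symbol. By this rule 9 of the 10 genes were measured, by 26 of 54613 probe sets, and stood among 19775 genes in all. The only probe set listed for CD68 is shared with a second gene, so CD68 was not analysed here. The cells were THP-1, a leukemia line of monocyte origin that is widely used as a model of monocytes and macrophages. Total RNA was read on 3 arrays, 1 for each of 3 cultures, so that no test between conditions was possible. The first culture, called undifferentiated, had no phorbol myristate acetate (PMA), an activator of protein kinase C that makes THP-1 cells adhere and mature. The culture called PMA 3 days was in 200 nM PMA for 24 h and then without it for 3 days. The culture called PMA 8 days was in 200 nM PMA for 72 h and then without it for 5 days, so that time in PMA and time after it differed together. A change to 2% serum for the last 16 h is described without saying whether it covered the undifferentiated cells. All cells came from a single leukemia line, whose own gene changes every culture shared.

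The receptors fall into structural classes. MSR1 (scavenger receptor A), MARCO and COLEC12 are trimers with a collagen-like stalk that bind negatively charged ligands such as acetylated lipoprotein and bacterial walls. CD36, SCARB1 and SCARB2 form a family of proteins anchored at both ends: CD36 takes up oxidised lipoprotein and fatty acids, SCARB1 exchanges cholesterol with high-density lipoprotein, and SCARB2 (LIMP-2) sits in the lysosomal membrane and carries glucocerebrosidase there. OLR1 (LOX-1) and MRC1 (the mannose receptor) bind through lectin-type domains, and STAB1 (stabilin-1) on tissue macrophages takes up matrix fragments and altered proteins. In monocytes that mature to macrophages, several of these receptors are textbook markers, and uptake through MSR1 and CD36 feeds the lipid droplets of foam cells.

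The stretches just before the transcript start are shown for the measured members held in the promoter table, because these genes are compared with each other below and differ in the base composition of that stretch. The table, from RefSeq on GRCh38.p14, held 5 of the 9 measured members. Each stretch is 250 bases on the gene's own strand, ending at the base before the start. Capitals mark matches, on either strand, to 1 of 7 motifs: AP-1 (TGANTCA), the ETS core (AGGAAG), the E-box (CACGTG), the CRE core (TGACGT), the GC box (GGGCGG), the TATA box (TATAAA) and the CCAAT box (CCAAT). MARCO is at chr2:118941944-118942193 and STAB1 at chr3:52495088-52495337, both on the plus strand. CD36 is at chr7:80601957-80602206 on the plus strand, COLEC12 at chr18:500702-500951 and SCARB2 at chr4:76213825-76214074, both on the minus strand. For CD36 the stretch before its outermost start is shown, of 6 that the table lists. The SCARB2 start is not the outermost of its gene.
MARCO: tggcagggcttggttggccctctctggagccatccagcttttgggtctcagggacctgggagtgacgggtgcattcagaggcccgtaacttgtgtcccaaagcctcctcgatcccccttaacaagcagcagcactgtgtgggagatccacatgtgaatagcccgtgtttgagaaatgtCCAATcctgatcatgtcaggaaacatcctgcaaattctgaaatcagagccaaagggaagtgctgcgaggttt
STAB1: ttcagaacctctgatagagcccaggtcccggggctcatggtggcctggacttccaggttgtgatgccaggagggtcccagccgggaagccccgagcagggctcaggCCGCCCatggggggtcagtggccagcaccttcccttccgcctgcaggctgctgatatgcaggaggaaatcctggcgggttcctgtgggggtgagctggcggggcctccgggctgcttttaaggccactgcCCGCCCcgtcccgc
CD36: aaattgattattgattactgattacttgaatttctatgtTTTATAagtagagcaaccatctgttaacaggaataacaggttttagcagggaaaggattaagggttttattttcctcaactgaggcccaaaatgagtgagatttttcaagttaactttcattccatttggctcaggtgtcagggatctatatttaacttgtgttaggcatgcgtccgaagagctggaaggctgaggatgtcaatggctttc
COLEC12: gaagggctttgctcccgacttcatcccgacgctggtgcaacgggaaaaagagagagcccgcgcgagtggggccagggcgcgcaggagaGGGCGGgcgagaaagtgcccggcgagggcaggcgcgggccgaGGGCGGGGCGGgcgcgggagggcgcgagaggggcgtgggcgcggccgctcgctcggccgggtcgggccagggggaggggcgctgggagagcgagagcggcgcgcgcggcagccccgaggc
SCARB2: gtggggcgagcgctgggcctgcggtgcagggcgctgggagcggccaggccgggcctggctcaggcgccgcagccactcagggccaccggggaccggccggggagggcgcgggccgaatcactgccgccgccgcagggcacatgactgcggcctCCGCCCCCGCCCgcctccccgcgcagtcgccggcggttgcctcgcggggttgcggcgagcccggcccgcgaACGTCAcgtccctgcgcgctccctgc
The CD36 stretch had 37.2% G and C and that of MARCO 53.2%, while STAB1 had 67.6%, COLEC12 78.4% and SCARB2 80.8%, against a median of 58% over 35116 stretches of the same length. GC boxes were found 3 times before COLEC12, where a pair overlapped by its edge, and 2 times each before STAB1 and SCARB2, and the motif was held by 42.6% of all stretches. The stretches of MARCO and CD36 had none, but MARCO had a CCAAT box 72 bases before its start (32.0% of all stretches) and CD36 a TATA box on the opposite strand 211 bases before its own (10.7%). SCARB2 also had a CRE core 26 bases before its start (7.10%). The AP-1 letters occurred in none of the printed stretches. They occurred in 1 of the other CD36 stretches, at chr7:80645999-80646248, 124 bases before that start, and in 6.57% of all stretches. Another CD36 stretch, at chr7:80623842-80624091, held the ETS core (28.7%), and the E-box was in no member's stretch (6.34%). These are matches of letters and not sites shown to be bound.

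A floor of 149.8 signal units, the median of all values, was set under every signal, and a ratio with 1 array at the floor is a lower bound, written "at least". Higher or lower means a ratio of 2 or more between 2 arrays. All arrays had a trimmed mean of 1000, and 48.5% to 51.4% of probe sets lay above the floor. The only error the arrays allow is the disagreement between probe sets of 1 gene, a technical SD on the log2 scale of 0.43 for the first comparison (PMA 3 days with undifferentiated cells), 0.44 for the second (PMA 8 days with undifferentiated cells) and 0.27 between the PMA arrays. It was taken only from probe sets above the floor on all 3 arrays, which leaves out those of MSR1, MARCO, MRC1 and OLR1. It holds no difference between cultures. The poly-A labelling controls had median log2 ratios of 0.31, 0.02 and -0.29 in the same order. Over all genes, 49.2% of the calls were higher in PMA 3 days over undifferentiated, and 28.4% with the arrays scaled to these controls or 59.2% with ratios centred on their median. For PMA 8 days over PMA 3 days the share was 58.9%, and 92.4% with the arrays scaled to the controls. The median log2 ratio of all genes moved from -0.12 to -0.39 and from 0.04 to 0.31 with that scaling. Of the myeloid markers, ITGAM, LYZ, PTPRC, CSF1R and CD4 were above the floor on all arrays, while FCGR1A was below it on all of them and SPI1, which encodes PU.1, was below it in undifferentiated cells and read 162 and 175 on the PMA arrays. Fewer cells with a transcript and less of it per cell cannot be told apart in such bulk RNA.

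In both PMA cultures most of the measured receptors were higher than in undifferentiated cells. At PMA 3 days 7 of 9 were higher and none lower: MSR1, MARCO, COLEC12, CD36, SCARB2, MRC1 and STAB1. Of 13306 genes tested, 10.4% were higher and 10.7% lower. At PMA 8 days 6 of 9 were higher, with COLEC12 just short of the threshold, and none lower, against 9.83% higher and 8.49% lower of 13555 genes. OLR1 was within 2-fold by the floored values and SCARB1 pointed the other way. All 9 were above the floor on both PMA arrays, but only 5 on the undifferentiated one, and the other 4 (MSR1, MARCO, OLR1 and MRC1) could by construction only be higher or equal. Of the 5 seen in undifferentiated cells, 4 were higher at PMA 3 days and 3 at PMA 8 days, against 8.68% and 8.07% of the 12495 genes seen there. The median log2 ratio of the 9 was at least 1.86 at PMA 3 days and at least 1.39 at PMA 8 days, both the floored values of MRC1, while all genes tested had -0.12 and -0.07. As 4 of the 9 passed the floor only through the PMA arrays, these medians are a description. Both comparisons use the same undifferentiated array, so an error in it would move both.

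**Figure D1:**
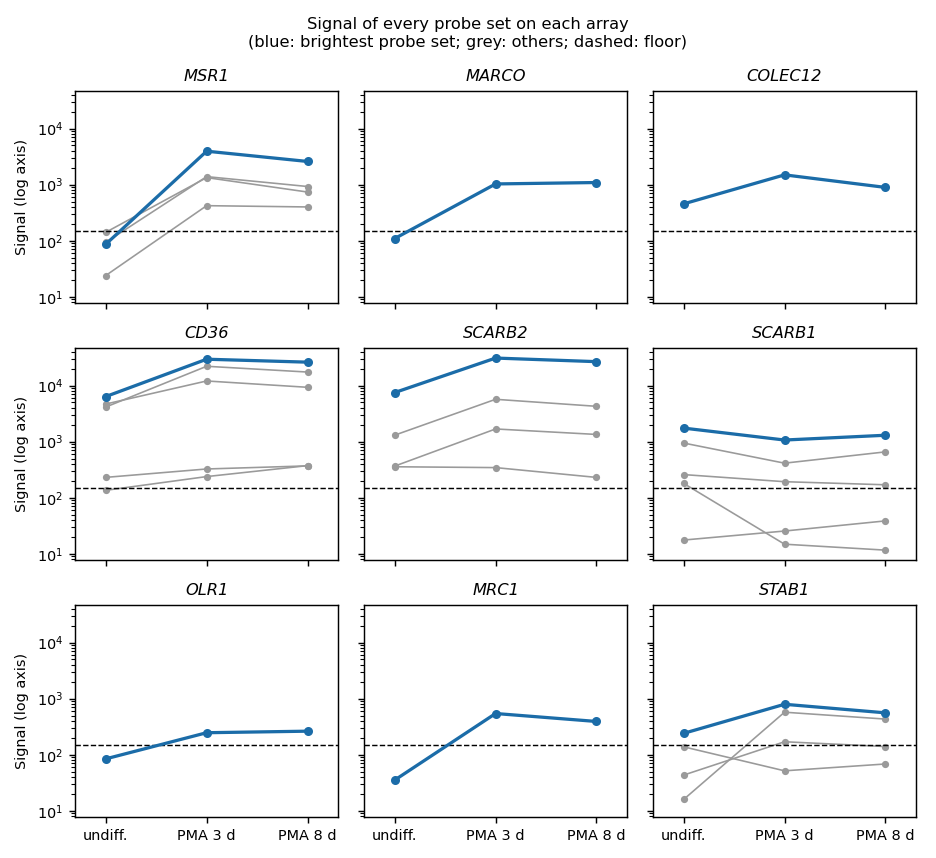
Signal of every probe set of the 9 measured genes on the 3 arrays, on a log axis, with 1 line per probe set, the brightest in blue and the floor of 149.8 dashed. Most lines step up between the undifferentiated and the PMA 3 days array and are nearly level or slightly lower at PMA 8 days; the SCARB1 lines that begin above the floor step down between the first arrays.

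Among the collagen-stalked receptors, MSR1 showed the largest difference of all members. Its brightest probe set read 86.5 in undifferentiated cells, 3944 at PMA 3 days and 2588 at PMA 8 days. The undifferentiated value lay under the floor, which gave at least 26.3-fold and at least 17.3-fold. The other 3 probe sets agreed in direction at both times: their ratios were at least 2.81-fold, at least 8.91-fold and at least 9.27-fold at PMA 3 days, each from below the floor. As all of these are lower bounds set by the floor, they do not show whether the size differed between probe sets. The median log2 ratio of the probe sets was at least 3.18, against at least 4.72 for the brightest. Without a floor the brightest gave 45.6-fold and the other 3, in the same order, 17.6-fold, 9.46-fold and 14.8-fold. By its floored ratio MSR1 stood above 99.7% of genes tested at PMA 3 days and 99.5% at PMA 8 days, places that depend on the floor.

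MARCO, a receptor of the same build that binds bacteria and is found on some tissue macrophages, had a single probe set. It read 109 in undifferentiated cells, 1028 at PMA 3 days and 1090 at PMA 8 days. This was at least 6.86-fold and at least 7.27-fold, and the PMA arrays were alike for this gene. With the floor raised to the 60th percentile of all values, 261, the log2 ratios went from 2.78 to 1.98 and from 2.86 to 2.06. COLEC12, best known from vessel-lining cells, was present before PMA, also by a single probe set, at 454, and read 1493 at PMA 3 days and 892 at PMA 8 days. It was 3.29-fold higher at PMA 3 days and 1.97-fold at PMA 8 days. That last value lay so near the threshold that quantile normalization (log2 1.09) or centring on the median ratio (log2 1.05) took it past.

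The CD36 family divided. CD36 was bright before PMA and higher after it: the brightest probe set read 6366 in undifferentiated cells, 29478 at PMA 3 days and 26126 at PMA 8 days, 4.63-fold and 4.10-fold. Another bright probe set, from 4140, gave log2 ratios of 2.41 and 2.07. A less steep one, from 4680, gave 2.58-fold and 1.99-fold. The 2 dim probe sets, which read between 136 and 374 on all arrays, gave ratios of at least 1.59-fold and 1.41-fold at PMA 3 days. At PMA 8 days the dimmest, 209554_at, had a log2 ratio of at least 1.32 and the other dim one 0.68. All 5 pointed up at both times. The 3 bright ones were past 2-fold at PMA 3 days, and 2 of them and 209554_at at PMA 8 days. Taking only probe sets whose ID ends in neither _s_at nor _x_at lowered the log2 ratio at PMA 8 days from 2.04 to 0.99, just under the threshold.

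SCARB2, the lysosomal member, followed a course like that of CD36. Its brightest probe set read 7502, 30909 and 26674 on the undifferentiated, PMA 3 days and PMA 8 days arrays, or 4.12-fold and 3.56-fold. A pair of dimmer probe sets gave 4.36-fold and 4.59-fold at PMA 3 days, close to the first. The fourth, 215754_at, read 357, 345 and 230 and showed no such step (log2 ratio -0.05 and -0.63). Which transcripts that probe set reads was not tested.

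SCARB1, the high-density lipoprotein receptor, did not share the increase. Its brightest probe set read 1744 in undifferentiated cells, 1069 at PMA 3 days and 1300 at PMA 8 days, with log2 ratios of -0.71 and -0.42. The next probe set read 944, 413 and 657 and was past the threshold at PMA 3 days, 2.28-fold lower. Scaled to the poly-A controls, the brightest probe set was past it as well, with a log2 ratio of -1.02. All 4 of its probe sets that were above the floor on some array had lower signals on both PMA arrays than on the undifferentiated one, and the fifth was below the floor throughout. At PMA 3 days 19.0% of genes tested had a lower ratio than SCARB1, while 96.9% and 96.4% had a lower one than CD36 and SCARB2.

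**Figure D2:**
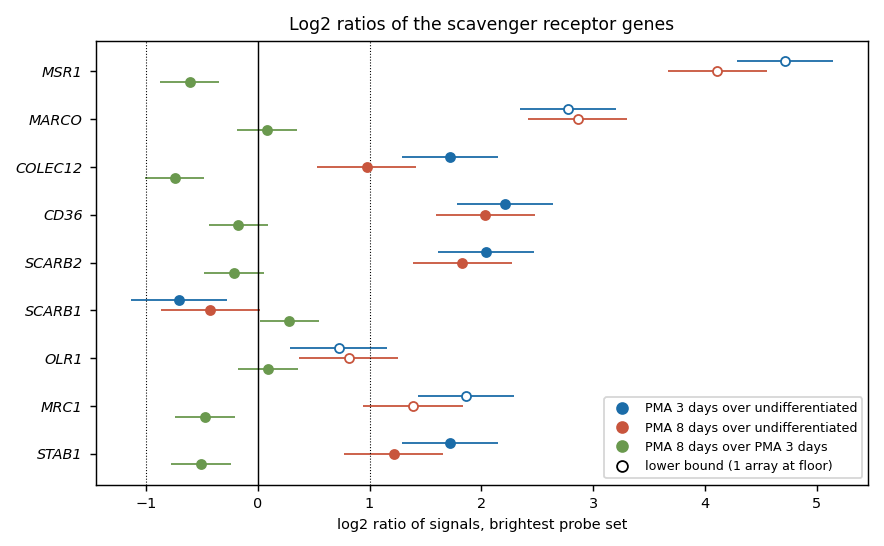
Log2 ratio of the brightest probe set of each gene in the 3 comparisons, with bars of 1 technical SD (0.43, 0.44 and 0.27). The SD is the disagreement between probe sets of a gene, taken only from probe sets above the floor on all arrays. Open circles are lower bounds and dotted lines mark 2-fold. MSR1 lies farthest to the right at 4.72, SCARB1 alone lies left of 0 in both comparisons with undifferentiated cells, and no green point (PMA 8 days over PMA 3 days) passes a dotted line.

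The lectin-type receptors MRC1 and OLR1 were below the floor in undifferentiated cells, and STAB1 was above it. MRC1, which takes up mannose-rich glycoproteins, read 35.4 in undifferentiated cells, 544 at PMA 3 days and 392 at PMA 8 days by its single probe set. The ratios were at least 3.63-fold and at least 2.62-fold. With the floor at the 60th percentile the second log2 ratio was 0.59 and no longer past the threshold, and without a floor the ratios were 15.4-fold and 11.1-fold. OLR1, a receptor for oxidised lipoprotein, was dim on every array. It read 84.6, 247 and 263, which gave at least 1.65-fold and at least 1.76-fold. Without a floor it was 2.92-fold and 3.12-fold higher, and among the alternatives tried only a lower floor or none took OLR1 past the threshold.

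STAB1, the stabilin, had 4 probe sets. The brightest read 241 in undifferentiated cells, 795 at PMA 3 days and 559 at PMA 8 days, 3.30-fold and 2.32-fold. The probe set 204150_at, from 16.0, read 574 and 433, at least 3.83-fold and at least 2.89-fold. The other 2 hardly left the floor: 1555319_at reached 171 at PMA 3 days, and 1555320_a_at stayed below the floor on all arrays. The increase of STAB1 thus rests on 2 of its 4 probe sets.

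Counted by probe set, 15 of the 24 with a value were higher and 1 was lower at PMA 3 days, while 8.9% of the 30289 probe sets tested were higher and 10.8% lower. At PMA 8 days 14 of 23 were higher and none lower, against 8.32% and 9.58% of 30882. Probe sets of a gene read the same RNA and are not replicates. Placed among all genes, STAB1 and COLEC12, both measured in undifferentiated cells, each stood above 95.1% of the genes tested at PMA 3 days, and above 92.7% and 89.8% at PMA 8 days. The lower bounds of MARCO, MRC1 and OLR1 stood above 98.2%, 95.7% and 85.2% at PMA 3 days. These places depend on the floor and give the genes no order.

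**Figure D3:**
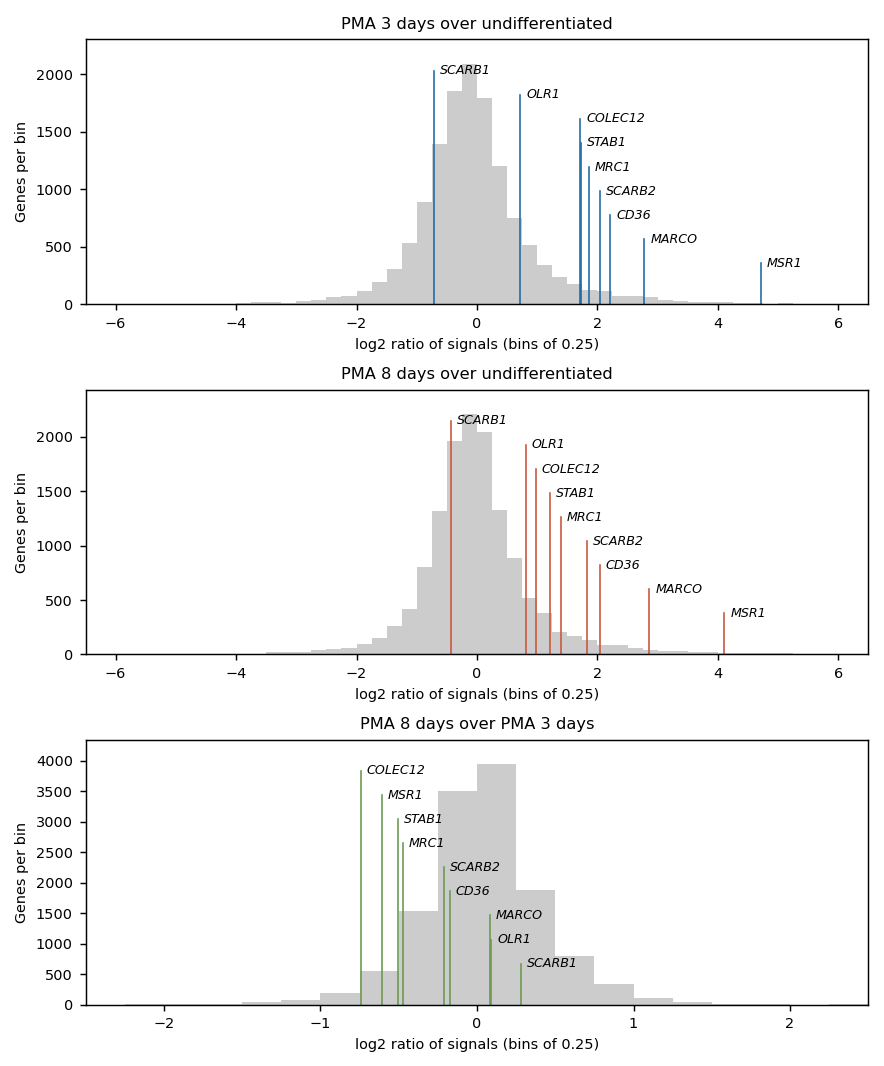
Number of genes per bin of log2 ratio (grey) for the 3 comparisons, with a line at the ratio of each scavenger receptor gene, whose height only separates the names; the few genes beyond the axis are not drawn. In the upper panels 8 lines lie right of 0, and in the lowest panel 6 of the 9 lie left of it and all lie within 2-fold.

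Between the PMA cultures the receptors differed little. None of the 9 passed 2-fold in either direction in PMA 8 days over PMA 3 days, where 2.33% of 13051 genes did. Signals were lower at PMA 8 days for 6 members and higher for 3. The lowest were COLEC12, at 59.8% of its PMA 3 days signal, and MSR1 at 65.6%. They passed 1.5-fold, as 4.76% of genes did in that direction. STAB1 was at 70.4%, MRC1 at 72.1%, SCARB2 at 86.3% and CD36 at 88.6%. MARCO, at 106%, OLR1 at 107% and SCARB1 at 122% were level or slightly higher. In technical SD, COLEC12 was 2.80 and MSR1 2.29 below 0, and the others were within 2 of it. By probe set, signals of all 4 of MSR1 and all 4 of SCARB2 were below those at PMA 3 days, none by 2-fold. Of the 5 for CD36, the bright ones were also below and the 2 dim ones above, again within 2-fold. Scaling to the poly-A controls moved each value up: COLEC12 and MSR1 went from -0.74 to -0.45 and from -0.61 to -0.31, under 1.5-fold, and CD36 and SCARB2 turned to 0.12 and 0.08.

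Genes with the most similar course were sought by the distance between pairs of log2 ratios (PMA 3 days and PMA 8 days over undifferentiated), among 13753 genes and over 3 arrays only. For MSR1 these were C3AR1 (distance 0.20), NRP1 (0.26) and PARM1 (0.27). NRP1 read 940, 20653 and 16671. For MARCO they were SRD5A1 (0.04), CYSTM1 (0.05) and TMEM273 (0.05), and for CD36 ADAMTS15 (0.02), SNX9 (0.04) and CTTNBP2NL (0.05). The ratios of MSR1 and MARCO are lower bounds, so their neighbours hold for this floor.

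The rest of the uptake machinery was followed in 7 lists, whose counts stand beside 10.4% higher and 10.7% lower of all genes at PMA 3 days and 9.83% and 8.49% at PMA 8 days. Of the other scavenger receptors 5 of 12 tested were higher at PMA 3 days and 4 at PMA 8 days, none lower, with median log2 ratios of 0.83 and 0.29. CD163, the haemoglobin receptor, stood first, at 218, 26654 and 15456 on the 3 arrays. CXCL16, a chemokine that also binds oxidised lipoprotein, was at least 7.33-fold and at least 4.57-fold higher, and LRP1, a large endocytic receptor of the lipoprotein receptor family, at least 4.46-fold and at least 3.25-fold. CLEC7A, the beta-glucan receptor, was 2.46-fold higher at PMA 3 days and back to 1.17-fold at PMA 8 days.

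Genes for oxidised lipoprotein and cholesterol handling, which act on what CD36 and MSR1 bring in, were higher in 12 of 18 and lower in 3 at each PMA time, with medians of 1.31 and 1.36. FABP4, a fatty acid carrier, was 41.1-fold and 32.4-fold higher, and APOE, a lipoprotein component that carries cholesterol out, 6.91-fold and 8.03-fold. CES1, a carboxylesterase, was 8.07-fold and 9.59-fold lower, and MYLIP, which tags lipoprotein receptors for breakdown, 13.4-fold and 5.32-fold lower. Between the PMA arrays 3 of the 18 were 2-fold higher at PMA 8 days, where 2.33% of all genes passed 2-fold in either direction: lipoprotein lipase LPL (6725 to 14280), caveolin CAV1 (5136 to 10495) and MYLIP (369 to 927). For LPL and CAV1 both probe sets passed 2-fold, but for MYLIP only 1 of 5.

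Regulators known to act on scavenger receptor genes were mostly within 2-fold: 5 of 18 higher and 1 lower at PMA 3 days, 4 and 1 of 19 at PMA 8 days, with medians of 0.22 and 0.12. MITF, a regulator of lysosomal genes, was 11.2-fold and 10.1-fold higher, ETS1 2.63-fold and 2.92-fold, and CEBPB 2.75-fold and 2.42-fold. CEBPA, a factor of granulocyte and monocyte precursors, was 6.51-fold and 3.62-fold lower. PPARG, the nuclear receptor that drives CD36, had log2 ratios of -0.32 and 0.06, within the technical SD.

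In the list for the uptake of apoptotic cells 9 of 16 were higher and 2 lower at PMA 3 days, and 7 of 14 and 1 at PMA 8 days, with medians of 1.22 and 0.93. The integrin chain ITGB5 was 15.9-fold and 18.7-fold higher and the receptor kinase MERTK had log2 ratios of 2.80 and 3.17. C1QC, a chain of complement C1q, was 6.20-fold higher and then 2.05-fold, and THBS1, the thrombospondin that CD36 binds, 4.40-fold and then 1.39-fold. Between the PMA arrays 3 of the 16 genes tested in this list were lower, THBS1 3.16-fold, C1QC 3.03-fold and C1QA 2.33-fold. Of all genes, 125 of 13051 were lower there, and CD36 itself stayed at 88.6%. Of the CD36 partners and signalling genes 5 of 15 were higher at each time and 1 was lower at PMA 3 days (medians 0.38 and 0.40). They included the tetraspanin CD9 (6.22-fold and 5.41-fold) and the kinase FYN (log2 ratios 1.34 and 1.32), and CD151, another tetraspanin, was 1.81-fold higher at PMA 3 days and 2.58-fold at PMA 8 days. TLR6, a toll-like receptor that pairs with CD36, was the lower one (2.06-fold, from 378 to 184), by 1 of its 2 probe sets tested.

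Lysosomal membrane genes, the company of SCARB2, gave 1 higher of 12 at each time, the channel MCOLN1 (2.21-fold and 2.56-fold), with medians of 0.65 and 0.57. That share is near those of all genes, 10.4% and 9.83%. Uptake lectins, the class of MRC1, had 3 of 9 higher and 1 lower at PMA 3 days and 1 of 10 each way at PMA 8 days, with medians of -0.07 and 0.13. CLEC4A was 13.3-fold and 6.33-fold higher, CLEC4E at least 2.41-fold and then at least 1.17-fold, and CLEC12A at least 6.84-fold lower at both times. CLEC4A, CLEC4E and CLEC7A, the 3 that were higher at PMA 3 days, were each lower again by 2.09-fold, 2.05-fold and 2.10-fold at PMA 8 days. They were 3 of 8 tested between the PMA arrays, where 125 of 13051 genes were lower. By probe set, 2 of 2 of CLEC4A but only 2 of 4 of CLEC7A passed 2-fold. CLEC4E had 1 probe set tested, which read 361 and 176 on the PMA arrays. MRC1 differed there by 1.39-fold.

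**Figure D4:**
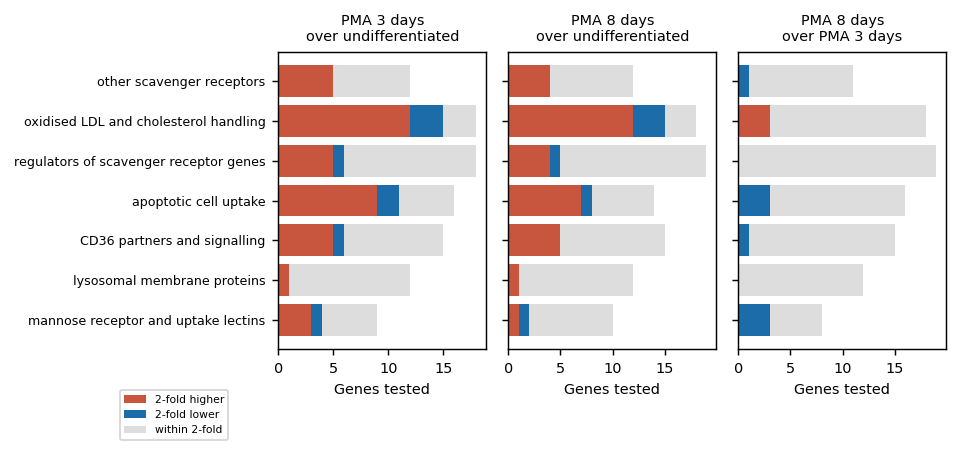
Number of genes tested in each of the 7 lists that were 2-fold higher (red), 2-fold lower (blue) or within 2-fold (grey) in the 3 comparisons. In the comparisons with undifferentiated cells, the list for oxidised lipoprotein and cholesterol handling has the most genes past 2-fold (12 higher and 3 lower of 18 at each PMA time). The lysosomal membrane list has the fewest in those comparisons.

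Markers of other cells that carry these receptors were read on the same arrays. Of 6 endothelial markers 2, 1 and 1 were above the floor on the undifferentiated, PMA 3 days and PMA 8 days arrays, with summed signals of 21625, 20882 and 18938, nearly all from PECAM1, which myeloid cells also express. STAB2 was above the floor in undifferentiated cells only, at 177, and CDH5, VWF, LYVE1 and TEK were below it on all arrays. Of 4 platelet markers 3, 2 and 3 were above the floor (sums 787, 879 and 707), with PF4 at least 2.73-fold higher at PMA 3 days. Of 4 fibroblast markers 2 were above it on each array (sums 834, 2583 and 2123), the difference coming from COL1A1, higher by 1 of its 4 probe sets. Both adipocyte markers were below the floor throughout, while 1 of 3 lymphocyte and 1 of 3 epithelial markers were above it on every array and 1 of 2 hepatocyte markers on the PMA 8 days array. In the cells' own lineage, 3 of 4 precursor markers were lower and 5 of 5 macrophage markers higher on both PMA arrays than in undifferentiated cells. Over all genes, 10.4% were higher and 10.7% lower at PMA 3 days, and 9.83% and 8.49% at PMA 8 days. Of 6 myeloid markers tested, 2 were higher at each time. LYZ read 1.71-fold below its undifferentiated signal at PMA 3 days and was 2.69-fold lower at PMA 8 days. The part of PF4 and COL1A1 in the results was not tested.

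The dependence on processing was drawn for every member. At PMA 3 days the 7 genes called higher stayed past 2-fold under each alternative that gave them a value, whether floor, probe set or scaling was changed. The log2 ratio of MRC1 ran from 1.06 to 3.94, that of MSR1 from 3.18 to 5.51, that of MARCO from 1.98 to 3.23 and that of CD36 from 1.37 to 2.41, while SCARB2 stayed between 1.73 and 2.16.

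**Figure D5:**
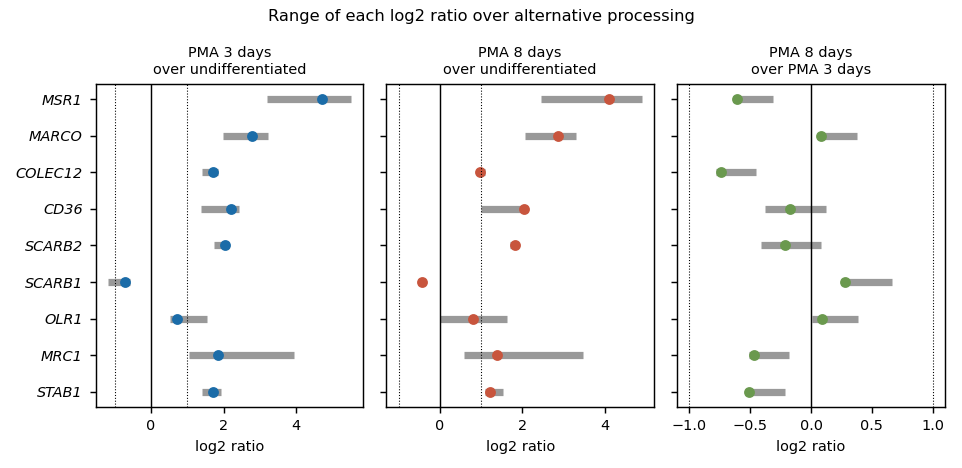
Log2 ratio of each gene as reported (coloured point) and its range over the alternative floors, probe sets and scalings (grey bar) in the 3 comparisons; dotted lines mark 2-fold. In the comparisons with undifferentiated cells the bars of MRC1 and MSR1 are the longest, those of MARCO, CD36 and OLR1 are of middle length, and in PMA 8 days over PMA 3 days no bar reaches 2-fold.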

How the data were processed

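Each culture gave 200 ng of total RNA, labelled with biotin per the labels' protocols, for 1 oligonucleotide array. Per the submitters' processing notes, the deposited intensity values were made with MAS5, of a version not given in the sources used here. They were checked to be linear, with 1 trimmed mean on all arrays. Of the probe sets, 62 controls were set aside. The remaining 54613 comprised 41091 naming a single gene, 1801 naming several and 11721 naming none. Entrez IDs of 41037 matched RefSeq (GRCh38.p14), and 0 symbols changed. A gene was represented by the probe set with the highest mean signal, signals under the median of all values were raised to it as a floor, and a gene was tested if above it on at least 1 array compared. Ratios are log2 values of floored intensities, called at 2-fold. With 1 array per condition there are no p-values, and the number of arrays limits the precision. Of each list, up to 4 genes with the largest ratios past 2-fold are named, and those past 2-fold between the PMA arrays. PPARG, SPI1, PF4 and other genes outside this rule were chosen after their values were seen. Members and lists were chosen with earlier results of these data known. The calling steps were run on simulated arrays with changes planted only in genes well above the floor. The noise there was smaller than the technical SD, and changes in genes near the floor were not covered. Python 3.11.15, numpy 2.4.6, pandas 2.3.3 and matplotlib 3.10.9 were used.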

Additional observations from a re-analysis of the deposited data

How the results depend on the processing

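The 11 alternatives were floors at the 40th or 60th percentile or none, 3 other choices of probe set, 3 other scalings, and thresholds of 3-fold and 1.5-fold. The number of members past 2-fold, 7 at PMA 3 days over undifferentiated, ran from 5 (second-brightest probe sets, held by 5 members, 4 higher and SCARB1 lower) to 9 (1.5-fold: 8 higher and 1 lower, where 41.7% of all genes passed, against 21.1% at 2-fold). At PMA 8 days over undifferentiated, 6 became 4 (second-brightest, or 3-fold, with 17.6% and 8.19% of all genes) to 8 (1.5-fold, 37.7%), against 18.3% of all genes at 2-fold. At PMA 8 days over PMA 3 days the count was 0 under every alternative except 1.5-fold, which gave 2, both lower (11.9% of all genes). Of 227 single log2 ratios under the floor, probe set and scaling alternatives, 185 moved by less than the technical SD, 42 by more, and 0 called values changed sign. COLEC12, MARCO, MRC1 and OLR1 have 1 probe set each and no check from a second. Values under the floor have no order. No paired analysis was possible because each condition had 1 array.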

Other observations

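Some probe sets of the members had signals under the floor on part of the arrays, where deposited values carry little weight. Without the floor, the STAB1 probe set 204150_at was 35.9-fold higher at PMA 3 days than in undifferentiated cells, against 3.30-fold for the brightest STAB1 probe set. The MSR1 probe set 208422_at was 17.6-fold higher without the floor and at least 2.81-fold with it. In SCARB1, 215834_x_at went from 180 in undifferentiated cells to 14.9 at PMA 3 days and 11.6 at PMA 8 days, 12.1-fold and 15.5-fold lower without the floor and at least 1.20-fold with it. The SCARB1 probe set 215835_at read 17.6, 25.5 and 38.7, below the floor throughout. These probe sets were chosen after their values were seen.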
